A study of Mus musculus with 24 samples.

Results

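The 40 genes described here are markers of astrocytes, taken from a list of gene symbols. All 40 were listed among the 23845 genes of the RNA table and the 20436 genes of the ribosome-protected fragment (RPF) table, and all 40 passed the filter on low counts in both. RNA-seq and ribosome profiling had been carried out on hippocampal slices of male wild-type (WT) and Tsc2+/- mice of postnatal days 28 to 42, treated for 5 min with vehicle, which was artificial cerebrospinal fluid, or with 100 µM DHPG, which activates the metabotropic glutamate receptors mGluR1 and mGluR5. Every slice of all 4 groups was then given cycloheximide, which arrests elongating ribosomes. Tsc2+/- mice carried 1 germline allele lost through a CMV-driven Cre on a C57BL/6J background, so the allele was missing in every cell type, and the WT mice were their littermates. Each library was made from pooled slices of several mice, enriched for CA1, and each of the 4 groups had 3 libraries for RNA and 3 for RPFs, with replicate numbers 1 to 3. An RNA library and an RPF library of the same group and number came from 1 lysate.

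Astrocytes take up glutamate and GABA, buffer potassium and water at the vessel wall, couple to each other through gap junctions, and supply lipids and metabolic substrates to neurons. Many of their defining proteins are membrane proteins, and part of the mRNA that encodes them is carried into fine perisynaptic processes and endfeet, where it can be translated locally. Ribosome profiling reads this translation as the number of RPFs per mRNA, called translational efficiency (TE), and the slices hold all cell types together, so that in these bulk samples fewer astrocytes and less RNA per astrocyte cannot be told apart. Several of the 40 are also expressed elsewhere in the hippocampus, among them Apoe and Cst3 in microglia, Vim and Sparcl1 in vascular cells, and Clu and Acsl6 in neurons.

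Libraries held 14801679 to 24067838 counts for RNA and 5296006 to 13613673 for RPFs, of which the 40 genes took 1.82% to 2.04% and 2.44% to 3.03%. Every member had at least 47 counts in each RNA library and at least 8 in each RPF library, the lowest in both being Fgfbp3. Of nonzero RPF counts, 97.9% to 98.5% were even in replicates 2 and 3, against 48.2% to 49% in replicate 1. The minimum of 8 fell in replicate 3 libraries, and how many fragments such counts stand for was not tested. Values are given as CPM, the library-scaled read counts after TMM normalisation, each assay on its own scale. Tsc2 checked the genotype labels: its lowest WT library held 185.9 CPM of RNA and its highest Tsc2+/- library 136.6, against 122.9 and 84.5 CPM of RPFs.

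Levels of the 40 genes were compared with each other per kilobase, with RNA divided by transcript length and RPFs by the counted coding length. In WT vehicle the most abundant RNAs per kilobase were Apoe, the lipid carrier of the astrocyte, at 1154 ± 54.7 CPM per kb (SD, n = 3), and Cst3, a secreted inhibitor of cysteine proteases, at 1017 ± 147. The chaperone Clu stood at 726 ± 41.0, glutamine synthetase (Glul) at 495 ± 14.5 and the main glutamate transporter Slc1a2 at 463 ± 70.3. Gfap, the intermediate filament protein by which astrocytes are usually stained, had 194 ± 15.6 CPM per kb of RNA and 292 ± 64.5 of RPFs. At the low end were Plcd4, a phospholipase C, at 3.55 ± 0.415 and Fgfbp3, an FGF-binding protein, at 2.76 ± 0.0397.

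RPFs per RNA, both per kilobase, were higher for most of these genes than for the median gene in WT vehicle. The median log2 TE of the 40 was 1.85, against 1.16 over 12160 genes with a known length, which is 1.61-fold higher on the linear scale and 1.36-fold when RNA was divided by coding length. Markers of oligodendrocytes (1.87), microglia (1.75) and reactive astrocytes (2.03) had like medians, and a further list of 60 astrocyte genes a lower one of 1.46. Of the 40, 28 lay above the median gene, 18 in the upper quartile and 2, Fgfr3 and Fgfbp3, in the lower quartile. The 3 metallothioneins, small cysteine-rich proteins that bind zinc and copper, led the list at 3.94 ± 0.254 (SD, n = 3) for Mt2, 3.57 ± 0.464 for Mt1 and 3.38 ± 0.407 for Mt3. Next came Id4, an inhibitor of basic helix-loop-helix factors, at 3.37 ± 0.0367, and the secreted matricellular protein Sparcl1 at 2.60 ± 0.119. The glutamate transporters Slc1a2 and Slc1a3 stood at 2.25 ± 0.0726 and 2.09 ± 0.138, Glul at 2.22 ± 0.199, the water channel Aqp4 at 2.18 ± 0.0875 and the gap junction protein Gja1 at 2.18 ± 0.130. Gfap was well below them at 0.57 ± 0.225, close to the GABA transporter Slc6a11 at 0.56 ± 0.168 and the orphan receptor Gpr37l1 at 0.44 ± 0.425. These positions rest on 1 transcript per gene, and 28 genes also lay above the median gene when RNA was divided by coding length, but not the same ones. Slc1a2, whose 11565 nt transcript holds 1719 nt of coding sequence, went from the 84.6th to the 28.9th percentile, and the deiodinase Dio2 from the 87.5th to the 25.1st. Mt1, Mt2 and Mt3 stayed at or above the 96.9th percentile on both scales. For its own TE the study aligned both assays to coding sequence and set a minimum length and a minimum level, limits not applied here. Mt1, Mt2 and Mt3 have coding sequences of 186, 186 and 207 nt, and Fgfbp3, lowest in this ranking, also had the lowest RNA per kb of the 40.

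**Figure D1:**
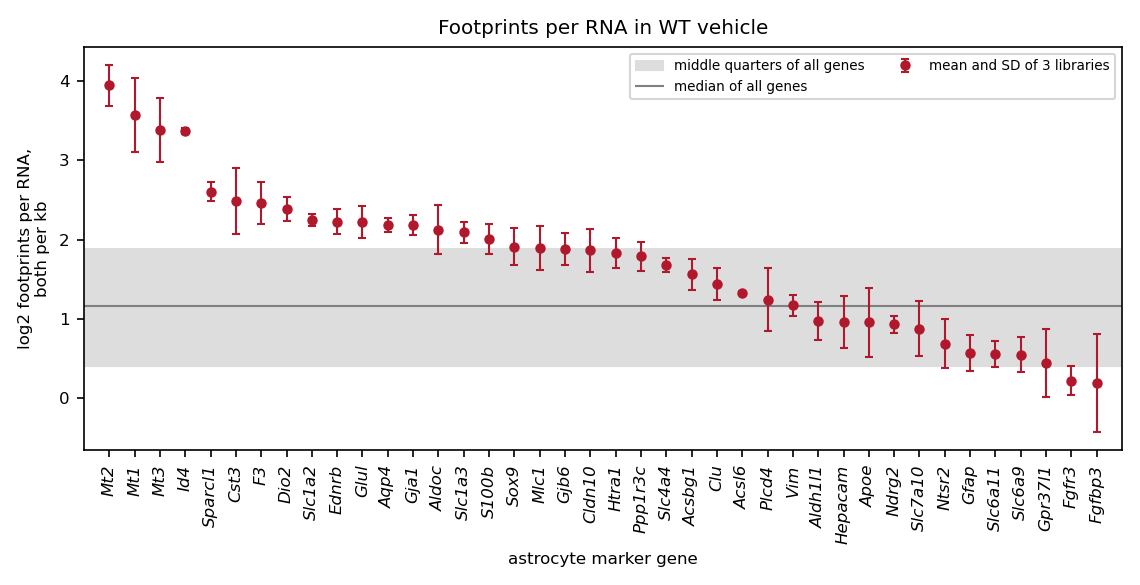
RPFs per RNA of each astrocyte marker gene in WT vehicle, as the log2 ratio of CPM per kb; points are means and bars the SD of 3 libraries, the line is the median of 12160 genes and the band spans the quartiles around it. The points fall from 3.94 for Mt2 to 0.19 for Fgfbp3, with 28 of 40 above the line.

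The coding sequences of the 3 metallothioneins are printed because the RPF values that lead the list rest on very short counted stretches of similar sequence. They lie side by side on the plus strand of chromosome 8 (RefSeq, GRCm38.p6), Mt3 from 94152800 to 94154010, Mt2 from 94172848 to 94173427 and Mt1 from 94179311 to 94180193, each span running from start to stop codon with its introns. Capitals mark the stretch in which RPFs were counted, 126 nt for Mt1 and Mt2 and 147 nt for Mt3, after the study's removal of 30 nt at each end.
Mt1: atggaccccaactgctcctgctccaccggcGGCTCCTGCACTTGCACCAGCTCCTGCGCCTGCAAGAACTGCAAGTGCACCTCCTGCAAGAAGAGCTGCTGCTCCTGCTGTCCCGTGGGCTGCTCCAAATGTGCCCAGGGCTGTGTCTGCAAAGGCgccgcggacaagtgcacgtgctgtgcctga
Mt2: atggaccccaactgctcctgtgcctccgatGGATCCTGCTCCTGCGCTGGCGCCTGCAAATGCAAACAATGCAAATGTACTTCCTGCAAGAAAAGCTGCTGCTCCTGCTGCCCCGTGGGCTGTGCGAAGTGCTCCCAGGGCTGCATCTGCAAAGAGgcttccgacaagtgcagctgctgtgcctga
Mt3: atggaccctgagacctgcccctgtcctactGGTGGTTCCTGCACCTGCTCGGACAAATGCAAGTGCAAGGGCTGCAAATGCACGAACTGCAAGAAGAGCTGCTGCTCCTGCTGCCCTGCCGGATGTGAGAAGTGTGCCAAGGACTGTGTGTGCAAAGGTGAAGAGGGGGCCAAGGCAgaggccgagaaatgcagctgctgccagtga
Mt1 and Mt2 share 79.6% of their aligned bases, Mt1 and Mt3 72.6%, and Mt2 and Mt3 75.3%. The longest run of identical bases between any pair of counted stretches was 27 nt, between Mt1 and Mt3, so no window of 30 nt, about the length of an RPF, was shared by 2 metallothioneins. Of the 97 such windows of Mt2, at least 10 had another exact copy elsewhere in the genome. No window of Mt1 or Mt3 was found more than once. A window across an exon junction is absent from its own gene in the genome. A single copy of it elsewhere was therefore not counted, so these numbers are lower bounds. Among all 40 genes the exception was Glul, where at least 517 of 1033 windows had another exact copy. The study kept uniquely mapped reads, so the RPF level of Glul is uncertain and may be too low. For 31 of the 40 genes no window was found more than once in the genome, and in the other 7 at most 1.88% of windows were.

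No astrocyte marker gene was called in any of the 21 comparisons, at an adjusted p under 0.1 in the edgeR quasi-likelihood test with Benjamini-Hochberg adjustment over all genes. The comparisons were the genotype effect within each treatment (vehicle, then DHPG), the DHPG effect within each genotype (WT, then Tsc2+/-), the interaction of both, and the averaged genotype and DHPG effects, each for RNA, RPFs and TE. Over all genes the same rule called 0.0964%, 0.0482%, 0%, 0%, 0%, 0.248% and 0.0207% in RNA, in that order. It called 0.0233%, 0.0155%, 0.0311%, 0%, 0%, 0.0544% and 0.0311% in RPFs, and 0%, 0%, 0.0548%, 0%, 0%, 0% and 0.0469% in TE. At such a background, 0 of 40 is not a result about the members. The intervals of the 40 genes were nonetheless narrow, under 1 estimate of spread per gene shared by all 4 groups. In each of the 4 simple comparisons the 95% interval of 39 members lay within a 1.5-fold change in either direction, for RNA, RPFs and TE alike, Fgfbp3 being the exception each time. Within a 1.25-fold change lay the intervals of 36 to 38 members for RNA, 31 to 34 for RPFs and 23 to 27 for TE. The summed RPFs of the members varied more in WT vehicle (SD 2840 CPM) than in the other groups (567 to 1576). The RPF intervals for genotype in vehicle and for DHPG in WT may therefore be too narrow.

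Counts of members at an unadjusted p under 0.05 are given beside the share of all genes. In RNA, 2 of 40 passed between genotypes with vehicle, where 4.95% of all genes did, and 2 with DHPG (background 4.73%). For DHPG in WT 6 of 40 passed, 4 higher and 2 lower, a larger share than the 6.07% of all genes. The members share libraries, so this share is a description and not a test. For DHPG in Tsc2+/- 1 of 40 passed (4.86%). In RPFs these counts were 1 (6.71%), 1 (4.25%), 0 (7.07%) and 1 (3.87%), and in TE 1 (5.12%), 1 (2.7%), 1 (8.67%) and 0 (3.32%). The values below describe the members with the smallest p in each comparison, none of which passed the adjusted threshold.

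Intermediate filaments and the calcium-binding protein S100b make up the cytoskeletal group. RNA of Gfap was at 550.1, 551 and 477 CPM in the vehicle and 581, 580.0 and 533 in the DHPG libraries of WT, and 563, 585 and 538 and 515, 599 and 519 in those of Tsc2+/-. RPFs of Gfap were at 442, 356 and 283 CPM in the vehicle and 374, 373 and 315 in the DHPG libraries of WT, and 359.9, 342 and 315 and 327, 361 and 299 in those of Tsc2+/-. The highest and the lowest RPF library of Gfap were thus both WT vehicle, replicates 1 and 3, and the other 10 libraries lay between them. Gfap had the smallest p of the members for TE between genotypes in vehicle, its log2 fold change being -0.18 (SE 0.0893, adjusted p 0.934) by edgeR. Without WT vehicle replicate 1 it was -0.076. RNA of Vim, which immature and reactive astrocytes express, was at 48.7, 42.9 and 46.4 CPM in the vehicle and 46.2, 46.0 and 44.6 in the DHPG libraries of WT, and 46.3, 41.6 and 46.2 and 40.3, 38.8 and 43.4 in those of Tsc2+/-. Its log2 fold change was -0.16 (SE 0.0748, adjusted p 0.9962) for Tsc2+/- against WT in DHPG and -0.13 (SE 0.0732, adjusted p 0.959) for DHPG in Tsc2+/-, which share the Tsc2+/- DHPG libraries.

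Membrane proteins of the endfoot and the astrocyte network form the group of 7 with Aqp4 and Gja1. RNA of Aqp4 was at 259.8, 255 and 182 CPM in the vehicle and 243, 247 and 219 in the DHPG libraries of WT, and 239, 237 and 223 and 235, 262 and 196 in those of Tsc2+/-. Its RPFs were at 215, 224 and 170.4 CPM in the vehicle and 227, 238 and 180.4 in the DHPG libraries of WT, and 233, 207 and 191 and 211, 209 and 183 in those of Tsc2+/-. Replicate 3 was the lowest of its group in both assays in all 4 groups, and no group stood apart from the others. RNA of Gja1 was at 281, 273 and 234 CPM in the vehicle and 263, 268 and 256 in the DHPG libraries of WT, and 261, 270.1 and 256 and 263, 283 and 246 in those of Tsc2+/-. For RPFs of Gja1 the values were 418, 482 and 359 CPM in the vehicle and 434, 481 and 380.1 in the DHPG libraries of WT, and 454, 482 and 424 and 420.2, 454 and 425 in those of Tsc2+/-. In RPFs of Gja1, WT vehicle replicates 1 and 3 lay below all 3 Tsc2+/- vehicle libraries and replicate 2 among them, and the genotype change there was 0.11 (SE 0.0573, adjusted p 0.751) by edgeR. Hepacam, a cell adhesion protein that holds the junction and chloride channel complex in place, had the smallest p for DHPG in WT RNA, with 164, 168 and 150.2 CPM in the vehicle and 180.2, 184 and 172 in the DHPG libraries of WT, and 174, 169 and 169.6 and 169.6, 177 and 165 in those of Tsc2+/-. All 3 WT DHPG libraries lay above all 3 WT vehicle libraries for Hepacam, its log2 fold change being 0.15 (SE 0.0534, adjusted p 0.800). Without WT vehicle replicate 3 this change was 0.12.

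Of the enzymes, Aldoc, the aldolase of astrocytes, had RNA at 876, 917 and 1016 CPM in the vehicle and 957, 972 and 949 in the DHPG libraries of WT, and 915, 945 and 889 and 879.6, 960.4 and 903 in those of Tsc2+/-. Its RPFs were at 1718, 1632 and 1318 CPM in the vehicle and 1539, 1708 and 1518 in the DHPG libraries of WT, and 1524, 1559 and 1516 and 1480.0, 1549 and 1449 in those of Tsc2+/-. In WT vehicle replicate 3 the RNA of Aldoc was the highest of the 12 libraries and its RPFs were the lowest, and its RPF change between genotypes in DHPG was -0.088 (SE 0.0550, adjusted p 0.9997). RNA of Ppp1r3c, a scaffold that targets protein phosphatase to glycogen, was at 60.6, 65.4 and 54.0 CPM in the vehicle and 57.5, 63.5 and 57.9 in the DHPG libraries of WT, and 67.5, 75.0 and 64.7 and 54.7, 69.7 and 62.9 in those of Tsc2+/-. Ppp1r3c had the smallest RNA p of the members for genotype in vehicle, 0.21 (SE 0.0690, adjusted p 0.849), and for DHPG in Tsc2+/-, -0.15 (SE 0.0677, adjusted p 0.959), and its groups overlapped in both. Between same-numbered libraries its RNA was higher in Tsc2+/- vehicle than in WT vehicle in all 3 pairs, and lower with DHPG in Tsc2+/- in all 3. These comparisons share the Tsc2+/- vehicle libraries. For the acyl-CoA synthetase Acsbg1 the change of TE with DHPG in WT was -0.18 (SE 0.0898, adjusted p 0.567), and for Ndrg2, a cytoplasmic protein enriched in astrocytes, that of RPFs was 0.076 (SE 0.0506, adjusted p 0.773).

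Transporters and Glul take glutamate, GABA and glycine from the synapse. RNA of Slc1a2 was at 5984, 5655 and 4440.1 CPM in the vehicle and 5679, 5834 and 5737 in the DHPG libraries of WT, and 5459, 5888 and 5676 and 5785, 6186 and 5541 in those of Tsc2+/-. RPFs of Slc1a2 were at 3987, 3726 and 3208 CPM in the vehicle and 3664, 3847 and 3452 in the DHPG libraries of WT, and 3965, 3806 and 3723 and 3779.6, 3663 and 3602 in those of Tsc2+/-. Its RNA in WT vehicle replicate 3 lay below the other 11 libraries, which spanned 5459 to 6186 CPM. RNA of Slc1a3 was at 837, 785 and 779.7 CPM in the vehicle and 804, 820.5 and 831 in the DHPG libraries of WT, and 784, 824 and 864 and 816, 856 and 847 in those of Tsc2+/-. For RPFs of Slc1a3 the values were 1435, 1289 and 1114 CPM in the vehicle and 1292, 1355 and 1212 in the DHPG libraries of WT, and 1316, 1288 and 1302 and 1285, 1234 and 1293 in those of Tsc2+/-. In both assays the lowest library of Slc1a3 was WT vehicle replicate 3. RNA of Glul was at 1434, 1383 and 1353 CPM in the vehicle and 1417, 1408 and 1416 in the DHPG libraries of WT, and 1393, 1449.5 and 1353 and 1268, 1442 and 1308 in those of Tsc2+/-. For RPFs of Glul the values were 2809, 2571 and 2044 CPM in the vehicle and 2375, 2635 and 2345 in the DHPG libraries of WT, and 2412, 2499 and 2478 and 2184, 2502 and 2302 in those of Tsc2+/-. For Slc1a3 and Glul the RNA varied by 1.11-fold and 1.14-fold between the lowest and the highest library and the RPFs by 1.29-fold and 1.38-fold, with WT vehicle replicate 1 highest and replicate 3 lowest in RPFs. The RNA medians of the 6 genes of this group were above 0 in all 4 simple comparisons, at 0.028 to 0.076 on the log2 scale, with 0 of 6 called. In TE the medians of the same genes were below 0 in all 4, at -0.080 to -0.012, and in RPFs they were 0.017, -0.027, 0.0091 and -0.044. Since these comparisons share libraries, the common sign is not 4 separate observations. RPFs per RNA of Slc6a11 were 0.735, 0.583 and 0.671 in the vehicle and 0.672, 0.602 and 0.497 in the DHPG libraries of WT, and 0.637, 0.561 and 0.571 and 0.597, 0.511 and 0.534 in those of Tsc2+/-. This gave a change of -0.16 (SE 0.0873, adjusted p 0.934) for genotype in vehicle and of -0.17 (SE 0.0867, adjusted p 0.592) for DHPG in WT. Both share the WT vehicle libraries, of which replicate 1 was the highest of all 12.

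The regulators of transcription are Id4 and Sox9, and the surface receptors Fgfr3, Ntsr2, Gpr37l1 and Ednrb. In RNA, Id4 was -0.23 (SE 0.108, adjusted p 0.807) with DHPG in WT, at an unadjusted p of 0.0448 by edgeR, and Sox9 was -0.0035 (SE 0.0709, adjusted p 0.9988). In RPFs of the same comparison Id4 was at -0.18 and Sox9 at -0.081, a median of -0.13 that was farther from 0 than that of any other group of members. RPFs per RNA of Id4 were 1.14, 1.09 and 1.12 in the vehicle and 1.04, 1.11 and 1.45 in the DHPG libraries of WT, and 1.15, 1.17 and 1.13 and 1.09, 1.02 and 0.936 in those of Tsc2+/-. Its genotype change in DHPG was -0.20 (SE 0.168, adjusted p 0.9996), with WT DHPG replicate 3 apart from the rest, and it was 0.0084 without replicate 3. RNA of Ntsr2, a neurotensin receptor of astrocytes, was at 152, 157 and 146 CPM in the vehicle and 162, 175 and 155 in the DHPG libraries of WT, and 158, 137 and 127 and 149, 143 and 145 in those of Tsc2+/-. The 3 Tsc2+/- DHPG libraries lay below the 3 WT DHPG libraries for Ntsr2, with a change of -0.17 (SE 0.0598, adjusted p 0.828). For the endothelin receptor Ednrb, RPFs were at 109, 132 and 98.5 CPM in the vehicle and 122, 133 and 114 in the DHPG libraries of WT, and 126, 116 and 108 and 118, 119 and 110.0 in those of Tsc2+/-. The DHPG change of Ednrb in WT was 0.12 (SE 0.0743, adjusted p 0.755).

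Secreted proteins gave the smallest p among the members in RPFs in 3 of the 4 simple comparisons. RNA of Apoe was at 1501, 1514 and 1635 CPM in the vehicle and 1548, 1694 and 1532 in the DHPG libraries of WT, and 1490.4, 1574 and 1518 and 1434, 1676 and 1603 in those of Tsc2+/-. RPFs of Apoe were at 2473, 2047 and 1484 CPM in the vehicle and 2049, 2142 and 1773 in the DHPG libraries of WT, and 1913, 2022 and 1992 and 1873, 2014 and 1794 in those of Tsc2+/-. The 3 WT vehicle libraries alone spanned a 1.67-fold range that held the other 9. RNA of Clu was at 1247, 1302 and 1394 CPM in the vehicle and 1359, 1469 and 1468 in the DHPG libraries of WT, and 1345, 1401 and 1377 and 1255, 1467 and 1467 in those of Tsc2+/-. Its change with DHPG in WT was 0.12 (SE 0.0457, adjusted p 0.800). WT vehicle replicate 3 lay above WT DHPG replicate 1, so these groups overlapped, although DHPG was higher in all 3 same-numbered pairs. RPFs of Clu were at 2667, 2662 and 2298 CPM in the vehicle and 2613, 2781 and 2496 in the DHPG libraries of WT, and 2665, 2813 and 2782 and 2431, 2677 and 2576 in those of Tsc2+/-. These gave changes of 0.12 (SE 0.0473, adjusted p 0.665) for genotype in vehicle and -0.10 (SE 0.0473, adjusted p 0.9989) for DHPG in Tsc2+/-. Both comparisons of Clu RPFs share the Tsc2+/- vehicle libraries, whose replicates 2 and 3 were the highest of the 12 for this gene. The matricellular Sparcl1 had RPFs at 5068, 5395 and 5648 CPM in the vehicle and 4409, 5516 and 5106 in the DHPG libraries of WT, and 5719, 6173 and 5258 and 6382, 6253 and 5226 in those of Tsc2+/-. Its change between genotypes in DHPG was 0.25 (SE 0.0933, adjusted p 0.9997) in RPFs and 0.19 (SE 0.0911, adjusted p 0.9996) in TE, and the groups overlapped through Tsc2+/- DHPG replicate 3, with Tsc2+/- higher in all 3 same-numbered pairs. Without replicate 3 the RPF change of Sparcl1 was 0.36 (SE 0.0604, adjusted p 0.00306), the only simple comparison in which leaving out a replicate number brought a member past the threshold. The share of all genes called without replicate 3 was not computed. Fgfbp3 had the largest fitted changes of the simple comparisons, -0.52 (SE 0.210, adjusted p 0.962) in RNA for genotype in vehicle and 0.65 (SE 0.361, adjusted p 0.9989) in RPFs for DHPG in Tsc2+/-, at 8 to 33 RPF counts a library. Its interaction values were 0.85 (SE 0.304, adjusted p 0.9986) in RNA and 0.82 (SE 0.503, adjusted p 0.9962) in RPFs.

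Metallothioneins are induced by metals and by stress. RPFs of Mt2 were at 450.2, 488 and 375 CPM in the vehicle and 429, 474 and 437 in the DHPG libraries of WT, and 408, 491 and 462 and 377, 482 and 426 in those of Tsc2+/-. RNA of Mt2 was at 119.8, 124 and 132 CPM in the vehicle and 117, 134 and 137 in the DHPG libraries of WT, and 116, 122 and 122 and 114, 138 and 132 in those of Tsc2+/-. RPFs of Mt2 were lowest in WT vehicle replicate 3 and highest in Tsc2+/- vehicle replicate 2. The change of Mt2 in TE with DHPG in Tsc2+/- was -0.17 (SE 0.0874, adjusted p 0.999), the smallest p among the members there, followed by that of Clu at -0.12 (SE 0.0673, adjusted p 0.999). RNA of Mt3 was at 141, 135 and 184 CPM in the vehicle and 169.5, 159 and 153 in the DHPG libraries of WT, and 147, 138 and 147 and 138, 150.2 and 146 in those of Tsc2+/-. RNA of Mt1 was at 226, 255 and 289 CPM in the vehicle and 263, 267 and 263 in the DHPG libraries of WT, and 237, 233 and 259.7 and 219, 266 and 258 in those of Tsc2+/-. Both were highest in WT vehicle replicate 3. The summed RNA of the 3 genes in WT was 535 ± 61.8 CPM with vehicle and 555 ± 5.48 with DHPG (SD, n = 3), and in Tsc2+/- it was 507 ± 19.1 and 520.3 ± 43.5.

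Another 8 members are given by their range over the libraries, and none was called in the 21 comparisons. Aldh1l1, the folate enzyme used as a general astrocyte marker, ranged over the 12 libraries from 51.3 to 61.5 CPM of RNA and from 77.2 to 108 of RPFs. Gjb6, the second astrocyte connexin, ranged from 28.1 to 38.5 and from 35.0 to 49.9. For Sox9, the transcription factor that specifies glial fate, the ranges were 66.4 to 80.6 and 79.1 to 106. WT vehicle held the highest RPF library of each of these 3 genes, and the lowest for Aldh1l1 alone. S100b ranged from 120.2 to 139 CPM of RNA and from 57.3 to 74.4 of RPFs, and its lowest RPF library was WT vehicle replicate 1, against the direction of most members. The glycine transporter Slc6a9 ranged from 43.1 to 49.97 and from 35.8 to 49.6, and the acyl-CoA synthetase Acsl6 from 138 to 155 and from 283 to 326. For both, RPFs were lowest in WT vehicle replicate 3. The tight junction protein Cldn10 ranged from 23.6 to 33.1 and from 62.5 to 78.0, and tissue factor, F3, which starts coagulation, from 35.0 to 41.0 and from 78.1 to 112. RNA of Cldn10 was highest and RNA of F3 lowest in WT vehicle replicate 3.

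Across all members the medians of the fitted changes were small. In RNA the median log2 fold change between genotypes was 0.023 with vehicle and -0.012 with DHPG, and that of DHPG was 0.045 in WT and 0.019 in Tsc2+/-. In RPFs the medians were 0.0052, -0.055, 0.0057 and -0.056 in the same order, and in TE 0.014, -0.014, -0.041 and -0.069. On leaving out single libraries or numbers, the RPF median between genotypes with vehicle ranged from -0.078 to 0.10 and that of DHPG in WT from -0.071 to 0.077, keeping the sign in 12 and 8 of 15 settings. All-gene medians lay between -0.0049 and 0.0015. With DHPG in Tsc2+/- 36 of 40 members had an RPF value below 0, and with genotype in DHPG 33 did, both of which share the Tsc2+/- DHPG libraries, whereas 49.6% and 48.4% of all genes were above 0. With DHPG in Tsc2+/-, RPFs of 14 of 15 oligodendrocyte markers (median -0.16) and 12 of 15 microglia markers (median -0.11) were also below 0. Of the further list of 60 astrocyte genes, 18 were above 0 (median -0.034). Of 15 neuron markers 5 were below 0 (median 0.018). Dentate gyrus neuron markers had the lowest median of the lists, -0.49 (median SE 0.343), with 1 of 8 above 0. The medians of CA1 markers, oligodendrocyte precursor markers and reactive astrocyte genes were -0.031, -0.032 and 0.0046. With genotype in DHPG, 27 of the 60 further astrocyte genes were above 0 in RPFs (median -0.015). So were 3 of 15 microglia markers (median -0.066), 5 of 15 oligodendrocyte markers (-0.019) and 9 of 15 neuron markers (0.014). The RPF median of the 40 members with DHPG in Tsc2+/- was 0.0033 without Tsc2+/- vehicle replicate 3. Their median for genotype in DHPG was -0.0035 without Tsc2+/- DHPG replicate 1, so leaving out 1 library brought each close to 0. Because the members share libraries, these counts are a description and not a test.

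Summed over the 40 genes, RNA was at 19370.4, 18977 and 17878 CPM in the vehicle and 19286, 19984 and 19434 in the DHPG libraries of WT, and 18830.4, 19656 and 19046 and 18676, 20479 and 19119.6 in those of Tsc2+/-. Slc1a2 was the largest part of the RNA sum, at 5984, 5655 and 4440 CPM in the WT vehicle libraries. In replicate 3 there, secreted proteins were higher (5646 against 5329 and 5305) and membrane proteins lower (987 against 1177 and 1167). Summed RPFs were at 30194, 28368 and 24622 CPM in the vehicle and 27169, 29276 and 26191 in the DHPG libraries of WT, and 28574, 29158 and 28023 and 27942, 28779 and 26705 in those of Tsc2+/-. WT vehicle held both the highest and the lowest summed RPF library, and its SD of 2840 CPM compared with 1576 for WT DHPG and with 567 and 1043 for the Tsc2+/- groups. The means of the groups were 27728, 27545, 28585 and 27809 CPM for RPFs and 18742, 19568, 19177 and 19425 CPM for RNA, and the libraries of every pair of groups overlapped in both assays. Between same-numbered libraries, summed RPFs of Tsc2+/- were lower with DHPG in all 3 pairs.

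**Figure D2:**
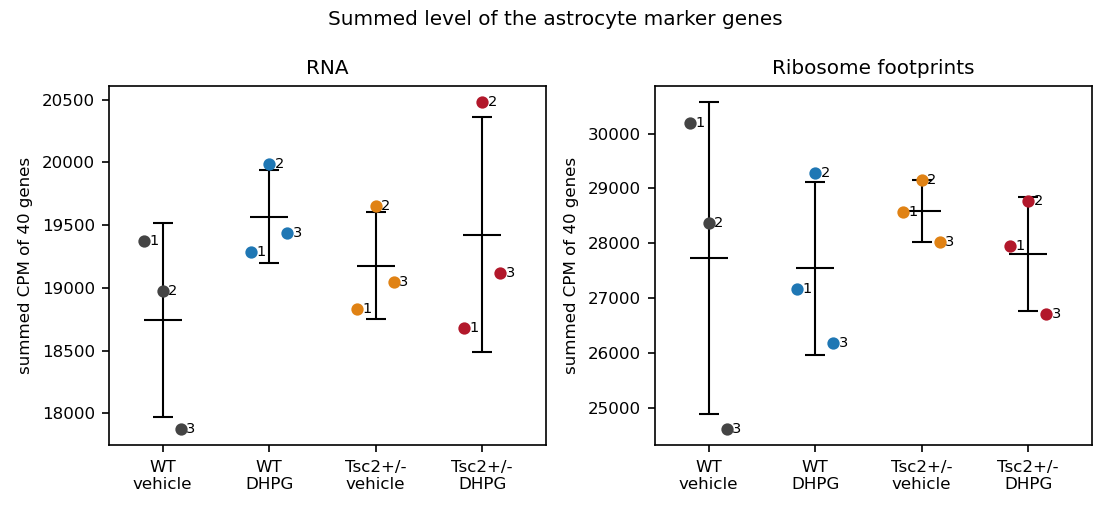
Summed CPM of the 40 astrocyte marker genes in RNA (left) and RPFs (right), by group; each point is a library labelled with its replicate number, and the bars are mean and SD of 3 libraries. The axes do not start at 0, and in RPFs WT vehicle replicates 1 and 3, at 30194 and 24622 CPM, enclose the other 10 libraries.

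The larger differences were between libraries, not groups. RPFs of 27 of the 40 genes were lowest in WT vehicle replicate 3, where the median gene lay 0.23 below its mean over the 12 libraries on the log2 scale and 2 of 40 lay above it. That RPF library was the shallowest of the 12, at 5296006 counts. RPFs of 23 of the 40 were highest in WT vehicle replicate 1, at a median of 0.21 above. For RNA the same replicate 3 was lowest for 15 genes, at a median of -0.074, and Tsc2+/- DHPG replicate 2 was highest for 13, at 0.078. The shares of all genes lowest or highest in these libraries are not given here, so the counts describe the members only. Genotype in vehicle differed between the pairs of same-numbered libraries, with member medians of -0.15, -0.038 and 0.21 in RPFs for numbers 1, 2 and 3. DHPG in WT did so too, with -0.16, 0.032 and 0.12. The comparisons without WT vehicle libraries were closer, with -0.071, -0.073 and -0.0078 for genotype in DHPG and -0.070, -0.0040 and -0.074 for DHPG in Tsc2+/-. Without WT vehicle replicate 1 the fitted RPF medians were 0.096 for genotype in vehicle and 0.072 for DHPG in WT, and without WT vehicle replicate 3 they were -0.063 and -0.071, so each changed sign with the library left out. No member was called in these settings, for which the share of all genes called was not computed.

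**Figure D3:**
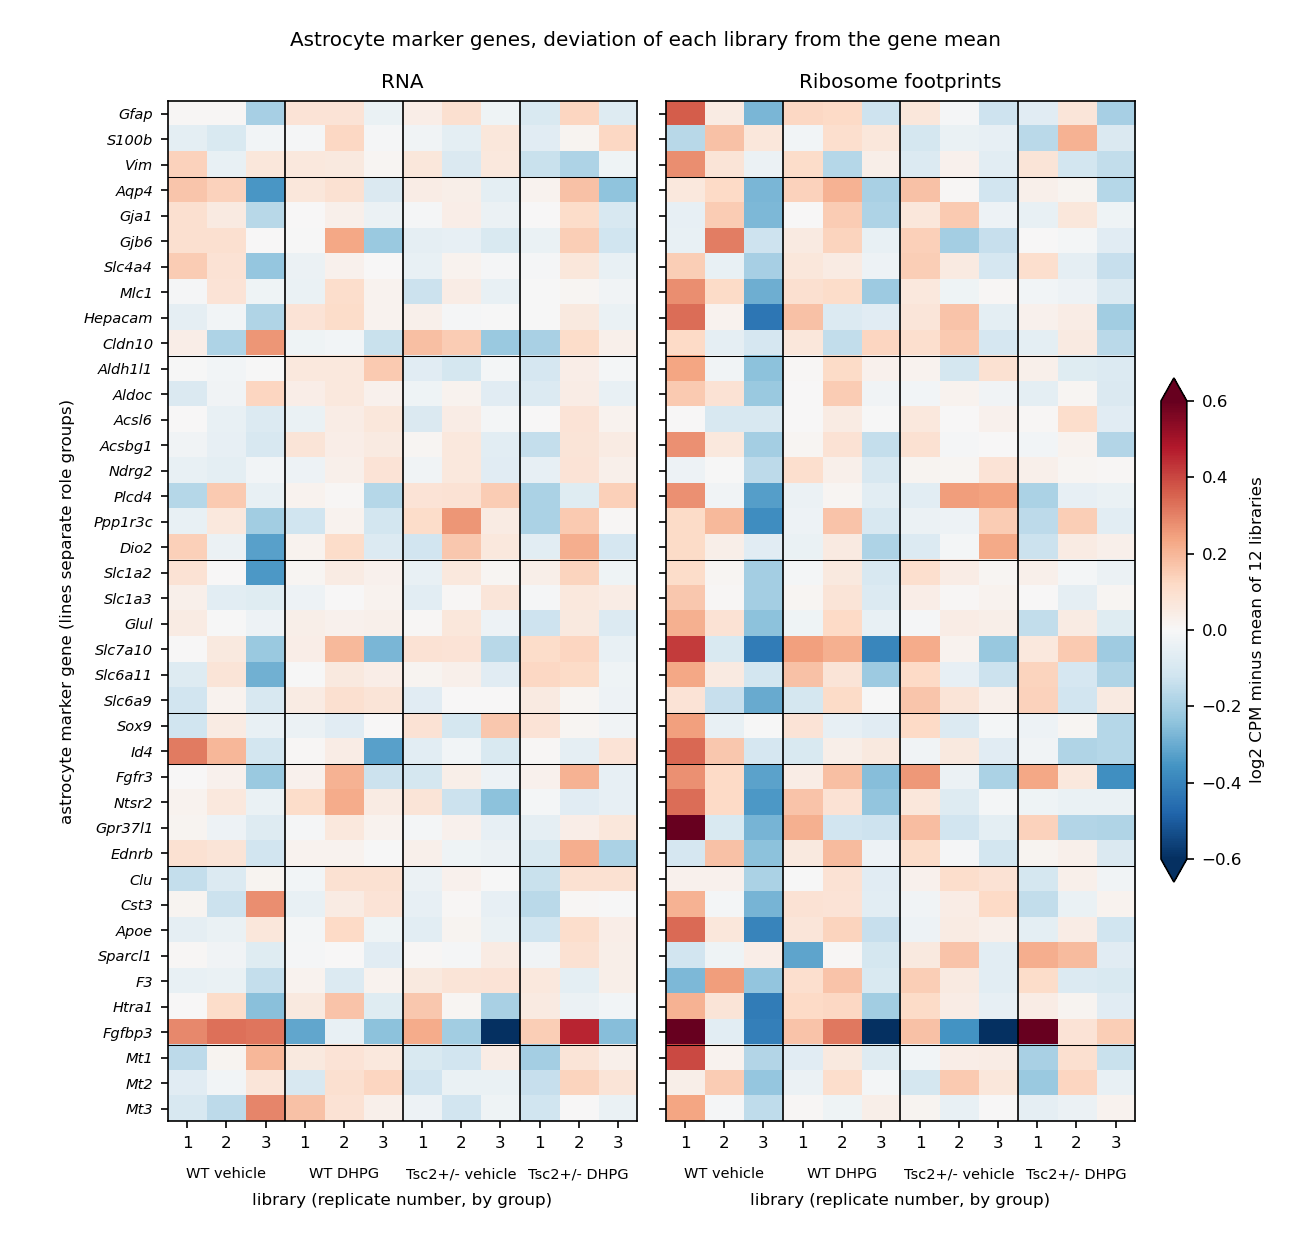
Deviation of each of the 12 libraries from the mean of the gene, in log2 CPM, for the 40 astrocyte marker genes grouped by role, in RNA (left) and RPFs (right); red is above and blue below the mean, and the scale ends at 0.6 in either direction. In RPFs the column of WT vehicle replicate 1 is mostly red and that of replicate 3 mostly blue.

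In the RNA of WT vehicle replicate 3 the deviation followed transcript length. Slc1a2, Aqp4, Dio2 and Slc6a11, all over 4000 nt, were lowest there, and the short Mt3, Cst3 and Mt1 were highest. Among the members, the median was 0.069 above the mean for the 13 with transcripts under 2000 nt and 0.23 below it for the 9 over 4000 nt. Across the 40 genes Spearman's rho between deviation and transcript length was -0.70 in that library, and between -0.29 and 0.42 in the other 11 RNA libraries. Across 13288 genes it was -0.45, against -0.17 to 0.17 in the others, so the dependence was not limited to these genes. These rho values are descriptions over genes of 1 library, which share its depth and preparation. In RPFs of the same lysate, members of all lengths were low, with rho 0.093, and medians of -0.23 for the short and -0.20 for the long transcripts. Across 12238 genes the rho of these RPFs was 0.21, opposite in sign to the RNA, against -0.18 to 0.14 in the other 11 RPF libraries. RPFs per RNA of that library were accordingly low for the short transcripts, at -0.31, and near the mean for the long ones, at 0.043. The RNA difference of Slc1a2 with DHPG in WT, of 0.11 on the log2 scale, included this library among its controls, and the part of RNA length or integrity in it was not tested.

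**Figure D4:**
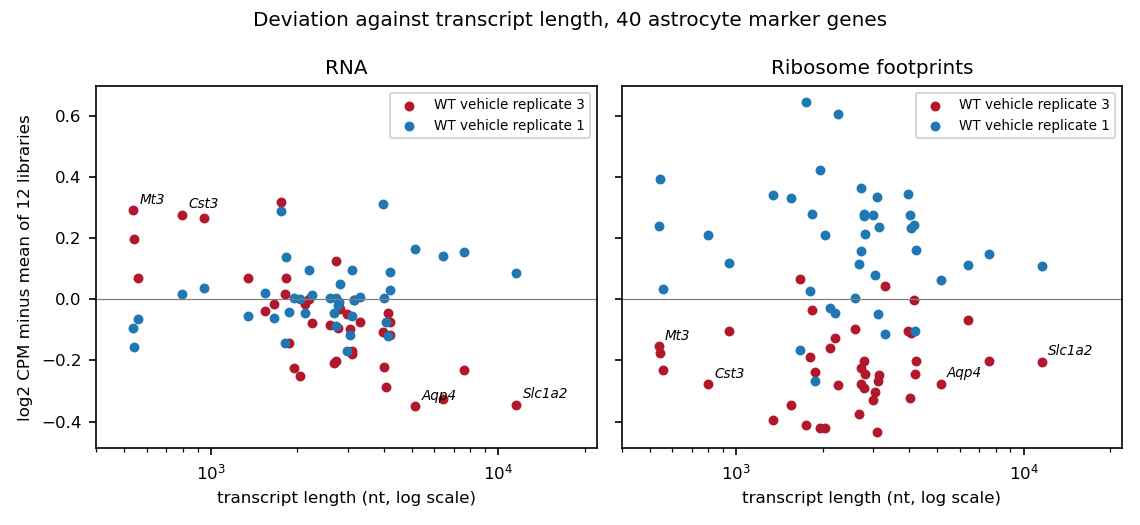
Deviation from the mean of 12 libraries (log2 CPM) against transcript length (nt, log axis) for the 40 astrocyte marker genes in WT vehicle replicates 1 and 3, in RNA (left) and RPFs (right). In RNA of replicate 3 the points fall from short to long transcripts (rho -0.70), and in its RPFs they lie low at all lengths (rho 0.093).

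Replicate number, which was in the model as a nuisance term, was then tested for itself over all genes, a test added after the library values had been seen. It called 14 of the 40 members in RPFs (35.0%), where 4.72% of all genes were called, and 5 in RNA (12.5%), where 2.4% were. Aqp4, Gfap, the receptor Fgfr3, the amino acid transporter Slc7a10 and the protease Htra1 were called in both assays. RPFs alone called Gja1, Slc1a2, Slc6a11, Mlc1, Hepacam, Gpr37l1, Acsbg1, Slc4a4 and Mt2. The strongest was Fgfr3, whose RPFs were at 107, 95.9 and 70.4 CPM in the vehicle and 90.8, 99.9 and 73.7 in the DHPG libraries of WT, and 105, 85.9 and 77.2 and 104, 92.0 and 68.2 in those of Tsc2+/-. Replicate 3 was the lowest in every group, with a difference of -0.48 between numbers 3 and 1 (adjusted p 0.000244 by edgeR). RPFs of Slc7a10 were at 61.6, 43.2 and 34.2 CPM in the vehicle and 54.6, 53.3 and 35.0 in the DHPG libraries of WT, and 53.6, 46.7 and 39.2 and 48.0, 51.2 and 39.7 in those of Tsc2+/-. Here replicate 3 was again the lowest in every group, with a difference of -0.55 between these numbers (adjusted p 0.00125). RPFs of Gpr37l1 were at 309, 190.2 and 167 CPM in the vehicle and 236, 187 and 186 in the DHPG libraries of WT, and 231, 187 and 195 and 223, 179.8 and 179 in those of Tsc2+/-. Number 1 was the highest in every group, with differences of -0.42 and -0.44 for numbers 2 and 3 (adjusted p 0.000917). Leaving out single libraries gave 10 to 19 RPF members, where 2.22% to 4.75% of all genes were called. It gave 1 to 9 RNA members, where 1.27% to 2.68% of all genes were. The RNA count was 1 without either WT DHPG replicate 2 or replicate 3, where 1.62% and 1.27% of all genes were called. It was 3 without WT vehicle replicate 3, Tsc2+/- DHPG replicate 2 or Tsc2+/- DHPG replicate 3, and 9 without WT vehicle replicate 2. What the numbers stand for in the preparation is not given in the labels, and nearly all RPF counts of numbers 2 and 3 were even. Halving those counts left 14 RPF members called, where 5.84% of all genes were.

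Other cell types moved with some of the same libraries. Of 15 microglia markers, all tested and none at 0, 11 were called by replicate number in RPFs (73.3%) and 5 in RNA (33.3%). Of 15 oligodendrocyte markers it called 9 in RPFs and 6 in RNA, of 8 CA1 markers 3 (37.5%) and 0, and of 15 neuron markers 4 (26.7%) and 0. The median RPF deviation of the microglia markers was 0.44 in WT vehicle replicate 1 and -0.34 in replicate 3, larger than that of the astrocyte genes in both. Their summed RPFs ranged in WT from 801 to 1218 CPM with vehicle and 831 to 1111 with DHPG, and in Tsc2+/- from 943 to 1169.8 and 857 to 1086. The 15 neuron markers stood at 0.079 and 0.0054 in these 2 WT vehicle libraries, and the 15 oligodendrocyte markers at 0.17 and -0.014. Endothelial and mural markers, also 15, were at 0.21 and -0.13 there but lowest in Tsc2+/- DHPG replicate 2, at -0.39, where the astrocyte genes were at 0.016. Summed RPFs of 8 dentate gyrus markers were 155 CPM in WT vehicle replicate 1, the highest of the 12 libraries, and 107 in WT vehicle replicate 3. For the 8 CA1 markers they were 1431, also the highest, and 1287. The part of cell composition in the astrocyte differences between libraries was not tested.

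**Figure D5:**
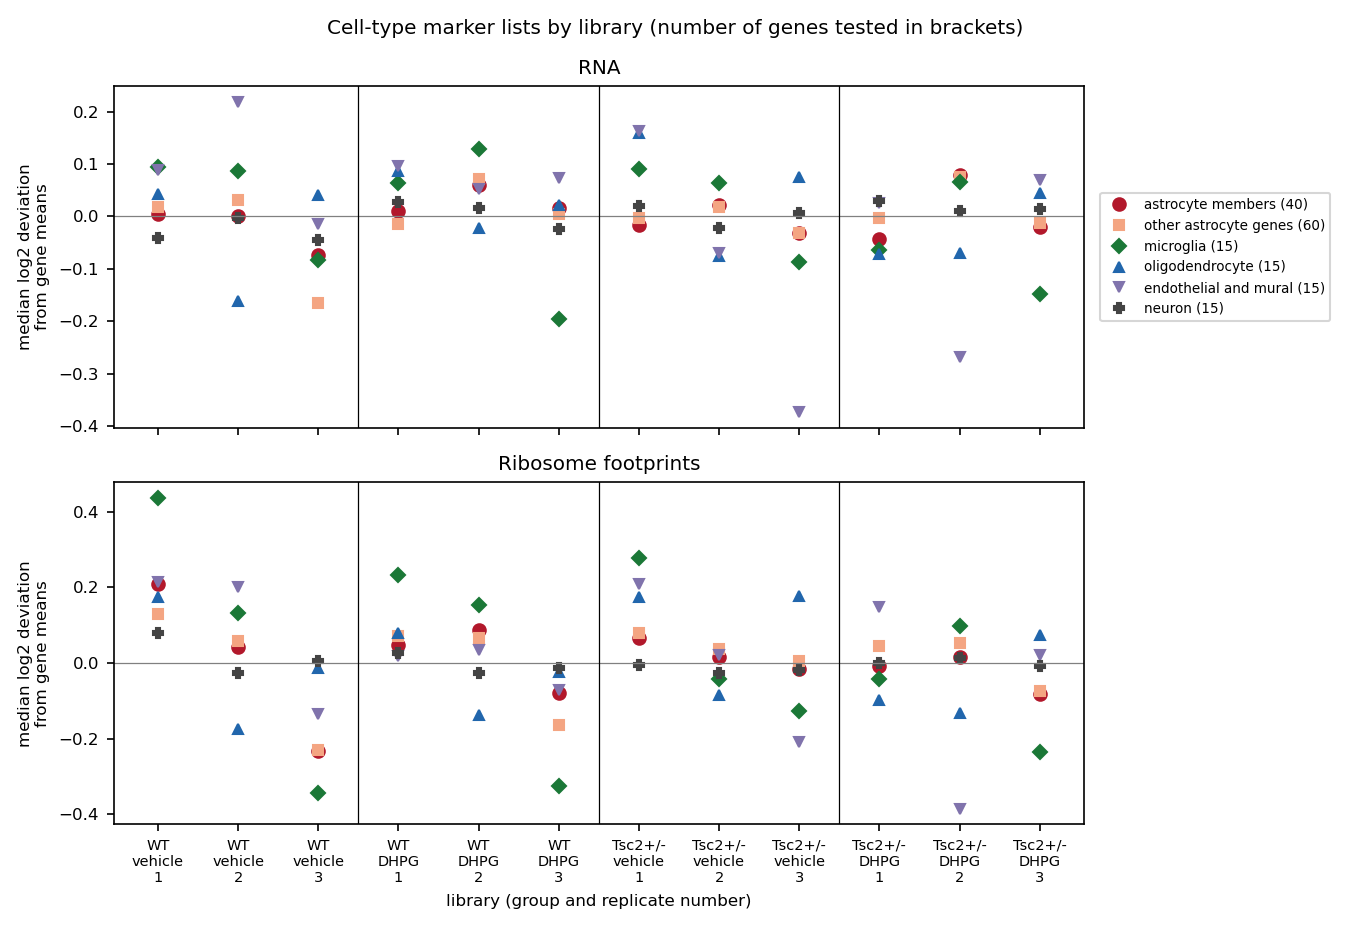
Median deviation of 6 cell-type marker lists from their gene means (log2 CPM) in each library, in RNA (top) and RPFs (bottom), with the number of genes tested in brackets. In RPFs astrocyte and microglia markers are high in WT vehicle replicate 1 and low in replicate 3, while the neuron list shown stays between -0.028 and 0.079. Dentate gyrus and CA1 markers are not shown.

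A further list of 60 astrocyte genes, such as the potassium channel Kcnj10, varied between the libraries in a like way. RPFs of 34 of the 60 were lowest in WT vehicle replicate 3, at a median of -0.23, and 24 were highest in WT vehicle replicate 1, at 0.13. The shares of all genes are not given beside these counts either. None of the 60 was called in the 21 comparisons, and replicate number called 19 in RPFs (31.7%) and 7 in RNA (11.7%). Of 24 genes known from reactive astrocytes, 22 were tested in RNA and 20 in RPFs, and 0 were called in any comparison. Their RPF medians in the same 2 libraries were -0.11 and 0.036, opposite in sign to those of the 40 marker genes. Replicate number called 7 of the 20 in RPFs (35.0%) and 6 of the 22 in RNA (27.3%).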

How the data were processed

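RNA-seq and ribosome profiling libraries had been made from hippocampal slice lysates, 12 of each. According to the study's methods and processing notes, the authors trimmed reads with Cutadapt, removed rRNA and tRNA with Bowtie2, aligned to mm10 with TopHat2, kept unique reads, removed duplicates by molecular identifier and deposited RSEM expected counts (estimated counts per gene), which were rounded here. Members and lists were chosen with earlier results of these data known.

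Genes were kept by filterByExpr (minimum count 10), scaled by TMM and fitted in R 4.3.3 with edgeR 4.0.16 (quasi-likelihood F test, robust), with group and replicate number as terms over the 12 libraries of an assay. TE was the assay by group interaction over all 24 libraries. P-values were adjusted over all genes by Benjamini-Hochberg and called under 0.1; they measure only the spread between these samples, each of which pooled mice. Replicate number was kept as a block, since the study corrected its counts for batch. Deviations of same-numbered libraries of different groups correlated at 0.0228 to 0.143 in RNA and 0.033 to 0.263 in RPFs, those of differently numbered ones at -0.126 to 0.024 and -0.194 to 0.0667, so the ranges overlapped slightly. Genes named are 8 defining markers and the 2 members with the smallest p in each simple comparison. Lengths and sequences are of 1 RefSeq transcript per gene (GRCm38.p6), with 60 nt taken off the coding length for RPFs. The transcript counted by the authors is not given in the sources used here. Alternatives used DESeq2 1.42.0 and ComBat of sva 3.50.0. The fits were also run on simulated counts with known changes. These held no shifts of whole libraries or by transcript length, so that check does not cover such shifts.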

Additional observations from a re-analysis of the deposited data

How the results depend on the processing

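Without the replicate block, 0 of 40 members were called in all 21 comparisons, and so it was with DESeq2, RLE scaling, no filter and a threshold of 0.05. None was called with ComBat or halved RPF counts in the 14 comparisons each was run for, with only the groups compared in 12, or with the lysate as a block in the 7 of TE. The share of all genes called in these comparisons was not computed for these settings or the leave-outs below. In the main fit it was at most 0.248%, a level at which 0 of 40 is not a result about the members. On leaving out single libraries or numbers, the member medians of the RPF change ranged from -0.075 to -0.0035 for genotype in DHPG and from -0.095 to 0.0033 for DHPG in Tsc2+/-, and those of the TE change in the latter from -0.091 to -0.019. These leave-outs gave 0 to 1 members. That member was Sparcl1 without replicate 3, in RPFs for genotype in DHPG (0.36 on the log2 scale, adjusted p 0.00306 by edgeR) and averaged (adjusted p 0.000776), and Ntsr2 in RNA without Tsc2+/- vehicle replicate 1 (averaged genotype, -0.18, adjusted p 0.0569). The values nearest 0 for DHPG in Tsc2+/- came without Tsc2+/- vehicle replicate 3, and that for genotype in DHPG without Tsc2+/- DHPG replicate 1. The TE change of Id4 was 0.0084 without replicate 3. Members called by replicate number in RNA ranged from 1 to 9 on leaving out libraries, where 1.27% to 2.68% of all genes were called. With RNA per coding length the median log2 TE was 0.58, since the divisor changed. The causes of the other changes were not tested.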
